A study of Saccharomyces cerevisiae with 11 samples.

Results

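The UTP, NOP and RRP genes of budding yeast (Saccharomyces cerevisiae) encode proteins that make ribosomes. They were taken as the nuclear protein-coding genes of the R64 assembly whose symbol is UTP, NOP or RRP followed by a number. NOP1, NOP10, NOP56 and NOP58 were left out. Their products are core proteins of the small nucleolar RNPs (snoRNPs). This rule gave 49 of 6002 nuclear protein-coding genes, made up of 18 UTP, 13 NOP and 18 RRP genes on 14 chromosomes. The annotation text of all 49 names rRNA, ribosomes, the nucleolus, snoRNA or the exosome, and none of the 49 has an intron. Their median coding length was 1455 bp, against 1200 bp over all 6002 genes, and their lengths ran from 591 to 7482 bp.

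The study compared where the cap-binding complex (CBC) and the RNase III enzyme Rnt1 sit along yeast transcription units (TUs). Of its 11 samples, 4 are ChIP-seq peak lists, with 2 libraries labelled Cbp20-myc and 2 labelled Rnt1-myc. The other 7 samples, RNA-seq, were not analysed here. Both strains are MATa and carry his3Δ1, leu2Δ0, met15Δ0 and ura3Δ0, and both were grown in YPD, a rich glucose medium, at 30 °C. The Rnt1 strain is listed as RNT1-myc13::NAT. For the strain labelled Cbp20-myc, the sample labels put the tag on the partner gene, as CBP80-myc13::NAT, while the strain list of the study gives CBP80-myc13::HIS. It is called Cbp20 here because the libraries are. The same anti-myc antibody was used throughout, and no untagged strain was analysed here. The Cbp20 lists held 3801 peaks in replicate 1 and 3648 in replicate 2, which covered 23.1% and 21.6% of the nuclear genome. The Rnt1 lists held 1238 and 1741 peaks and covered 5.92% and 9.98%. The narrowest peak was 146 bp in both replicate 1 lists and 199 bp in both replicate 2 lists, so lists of the same number resemble each other in this respect, and values are given per replicate. A list gives only the chromosome, start and end of each peak. Peak height and the number of reads behind each library are unknown, so a base outside the peaks is a base at which signal did not pass the peak caller at an unknown depth.

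Ribosome synthesis starts in the nucleolus, where a long precursor rRNA is cut, chemically modified and folded while it is still being made. The UTP proteins, named after the U3 snoRNA with which they were purified, build the small-subunit processome, a large particle that forms on the 5ʹend of that precursor. Its first parts join as preformed modules, UTPA, UTPB and UTPC. Many NOP and RRP proteins act on the precursor of the large subunit, and several RRP proteins form the exosome, the complex that trims and destroys RNA from the 3ʹend. The CBC binds the cap of a new Pol II transcript and can be crosslinked to the gene while that transcript is still attached. Rnt1 cuts double-stranded hairpins, most of them closed by an AGNN loop, in precursors of rRNA, snoRNA and some mRNA.

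Cbp20 peaks lay on most of these genes. At least 1 coding base was under a Cbp20 peak in 44 of the 49 genes in replicate 1 and in 41 in replicate 2, where 51.4% and 49.2% of all protein-coding genes had a peak. The same 41 genes carried a peak in both replicates, which is 83.7% of the group beside 44.9% of all genes. RRP17, RRP46 and UTP6 had a peak in replicate 1 only, and NOP9, NOP19, NOP53, RRP8 and RRP36 had none in either list. The median share of coding bases under Cbp20 peaks was 59.9% in replicate 1 and 41.6% in replicate 2 over the 49 genes, and 5.93% and 0% over all genes. Among genes with a peak in both lists the order was reversed. There the median was 65.2% and 48.2% in the 41 genes, against 76.8% and 71.8% in all such genes. The group thus had a peak more often, but its covered genes were covered less. In 19 of the 49 genes at least 50% of the coding bases were covered in both replicates, beside 27.4% of all genes. In 34 of the 41 genes none of the Cbp20 peaks touched another annotated gene in either list, so for these the peaks could not be assigned to a neighbour by overlap.

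Rnt1 peaks lay on few of them. Replicate 1 placed a Rnt1 peak on 2 of the 49 genes, where 13.5% of all genes had 1, and replicate 2 on 4, where 20.6% did. Only UTP5 and UTP20 were covered in both replicates, which is 4.08% of the group beside 12.9% of all genes. The median share of coding bases under Rnt1 peaks was 0% in both lists, as it was over all genes. Taken as a single value per library, the median over the 49 genes was 50.7% ± 12.9 (SD, n = 2) for Cbp20 and 0% ± 0 (SD, n = 2) for Rnt1. The two-sided exact permutation test over the 4 libraries gave p = 0.333, the smallest value that 2 libraries against 2 allow, so this design cannot separate the proteins by that test.

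**Figure D1:**
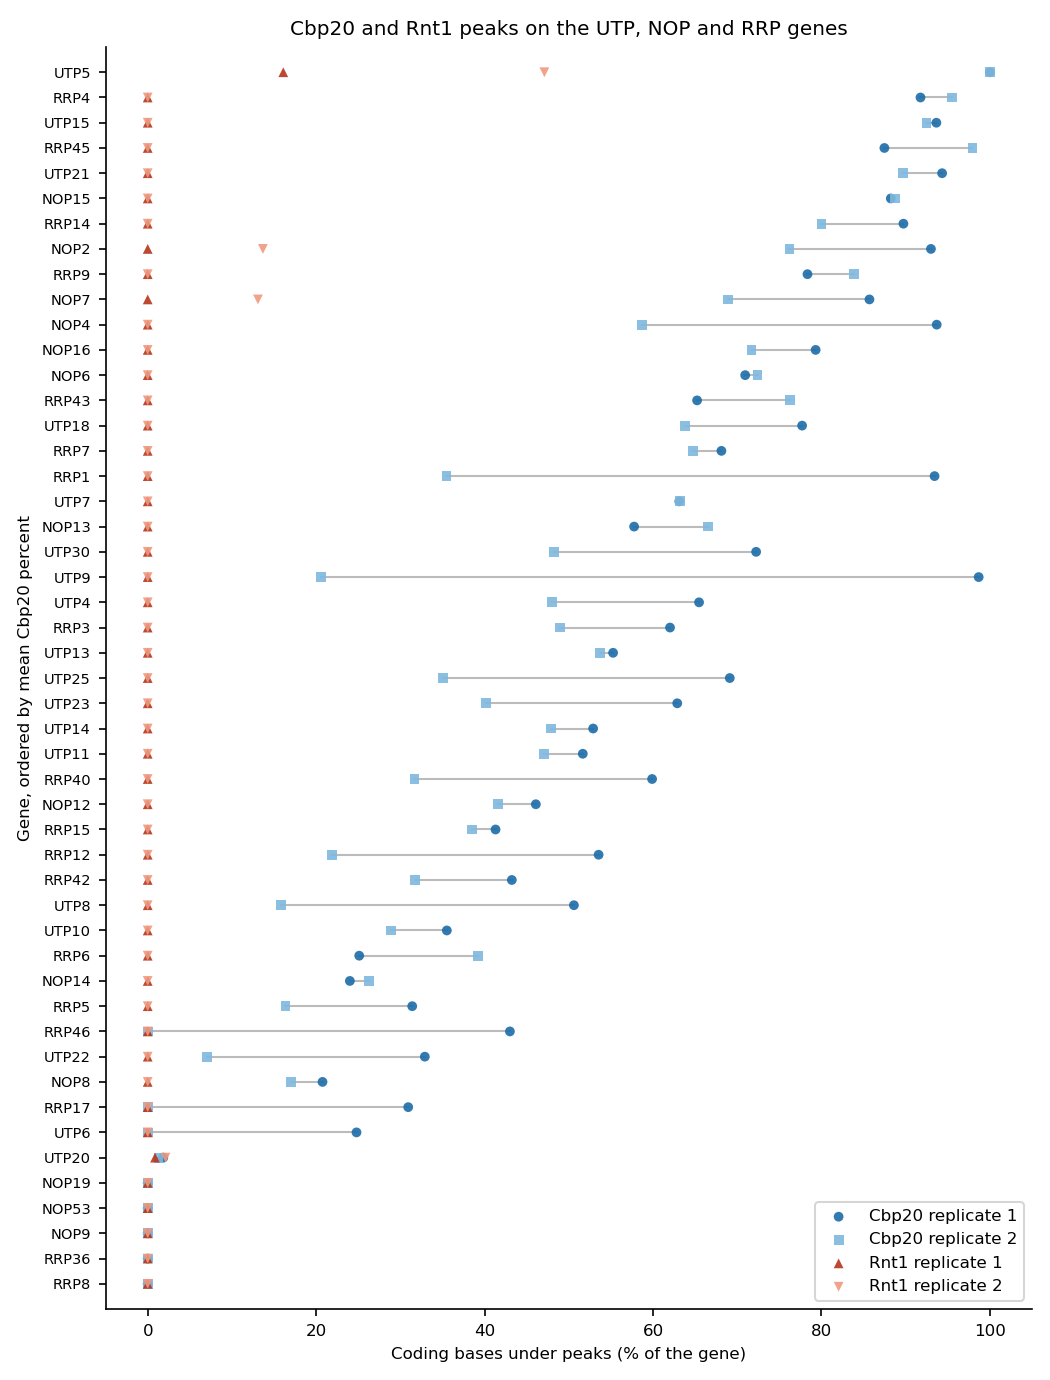
Percent of coding bases under peaks (x axis) in each of the 49 genes (y axis, ordered by the mean of the 2 Cbp20 lists). Circles and squares are Cbp20 replicates 1 and 2, joined by a grey line, and triangles pointing up and down are Rnt1 replicates 1 and 2. Cbp20 points run from 0% to 100%, while the Rnt1 points leave 0% only for UTP5, UTP20, NOP2 and NOP7.

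The Cbp20 peaks were found in every functional class, and 44.9% of all genes had a peak in both replicates. The classes are small, so a covered gene in each says little by itself. All 6 UTPA genes had a peak in both replicates, as did 3 of 4 UTPB, 2 of 3 UTPC, 11 of 13 other small-subunit, 11 of 14 large-subunit and 6 of 7 exosome genes, and both genes (RRP5 and RRP12) whose products serve the 2 subunits. Median coverage was 79.6% and 38.4% in replicates 1 and 2 for UTPA and 66.5% and 58.8% for UTPB. It was 62.0% and 47.0% for the other small-subunit factors, and 68.5% and 50.1% for the large-subunit factors. UTPC, with 3 genes, had the lowest medians, 32.9% and 7.08%. The exosome genes had 59.9% and 39.2%, and all genes 5.93% and 0%. By name, 17 of 18 UTP, 10 of 13 NOP and 14 of 18 RRP genes were covered in both replicates.

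The most fully covered gene was UTP5, which encodes a UTPA subunit and lies on the plus strand of chromosome IV from 1267471 to 1269402. Every one of its 1932 coding bases was under a single Cbp20 peak in both lists. These peaks reached 31 and 13 bp past the start codon end and 62 and 66 bp past the stop codon end, and touched no other gene. UTP5 was thus covered from end to end, with no difference between replicates.

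Next came RRP4, which encodes an RNA-binding cap subunit of the exosome, at 91.8% in replicate 1 and 95.5% in replicate 2. UTP15, another UTPA gene, stood at 93.6% and 92.5%. RRP45, an exosome ring subunit, stood at 87.5% and 97.9%. By mean coverage these 3 genes ranked behind UTP5 alone. UTP21, the UTPB gene of 2820 bp, had 94.3% and 89.7%, and NOP15, a large-subunit RNA-binding protein gene of 663 bp, had 88.2% and 88.7%. High coverage was thus seen in a long and in a short gene. RRP14, a ribosome synthesis factor, had 89.7% and 80.0%, and NOP2, the gene of an rRNA cytosine methyltransferase, had 93.0% and 76.2%. Of these 8 genes, RRP4, RRP45 and NOP15 were covered through the last base of the stop codon in both replicates, as UTP5 was, while UTP15, UTP21, RRP14 and NOP2 stopped 24 to 116 bp short of it.

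The 5 genes without a Cbp20 peak belong to different steps of the pathway. NOP9 and NOP19 encode small-subunit factors, RRP36 a UTPC protein, NOP53 a large-subunit factor that brings the exosome to its substrate, and RRP8 an rRNA adenine methyltransferase. They measure from 591 bp (NOP19, the shortest gene of the group) to 2001 bp (NOP9), so they include a gene longer than the group's median. None of the 5 had a Rnt1 peak either. A further gene, UTP20, was covered only at its tail. This gene, at 7482 bp the longest of the 49, encodes a small-subunit factor and had 1.84% and 1.28% of its bases under Cbp20 peaks. Those peaks also covered the histone gene HTA2, which lies 276 bp past its stop codon end. With only peaks that touch no other gene counted, 37 of the 49 genes carried Cbp20 in both replicates, beside 33.4% of all genes, and UTP20 was not among them.

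Coverage was higher in Cbp20 replicate 1 than in replicate 2 in 30 of the 41 genes and lower in 10, with a median difference of 4.96 points. Over all 2692 genes with a Cbp20 peak in both lists, replicate 1 was higher in 1317, lower in 967 and equal in 408. The median difference there was 0, so replicate 1 was also more often the higher one over all genes. UTP9, a UTPA gene, differed most: 98.7% of its 1728 bases were covered in replicate 1 and 20.5% in replicate 2, where the peak stopped 1373 bp before the stop codon end. RRP1, a large-subunit gene, had 93.4% and 35.5%. RRP46, an exosome ring gene, had 43.0% and 0%. By the size of the difference these 3 genes came first. NOP4, an RNA-binding large-subunit factor, had 93.7% and 58.7%, and UTP8, a UTPA gene, had 50.6% and 15.8%. RRP17, the gene of an exonuclease that trims large-subunit rRNA from the 5ʹend, had 30.9% and 0%, and UTP6, a UTPB gene, 24.8% and 0%. In the 5 genes with the largest differences the higher value was that of replicate 1. RRP17 and UTP6 were named because they lacked a peak in replicate 2, so their direction was fixed by that choice. Of the exosome genes with a peak in both replicates, 4 of 6 were higher in replicate 2 instead.

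Along the gene, the Cbp20 peaks began inside the coding region rather than at its start. No gene of the 49 was under a Cbp20 peak at 100 or at 150 bp before the start codon in either replicate, where 5.28% and 3.77% of all genes were at 100 bp. At the first coding base, 2 of the 49 genes (4.08%) were covered in each list. The share rose to 63.3% and 51.0% at 200 bp into the gene and to 77.6% and 65.3% at 400 bp, the lower value of each pair being replicate 2. All genes rose from 14.8% and 13.0% at the first base to 34.5% and 33.8% at 200 bp and stayed at 33.5% and 34.5% at 400 bp. The group thus stood below all genes at the start codon and above them inside the gene. Only UTP5 and UTP9 had the start codon end under peaks in both replicates, beside 11.2% of all genes. The stop codon end was covered in both replicates in 9 of the 49, beside 19.0% of all genes. Without replicate 2 the count was 16, beside 27.3% of all genes.

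**Figure D2:**
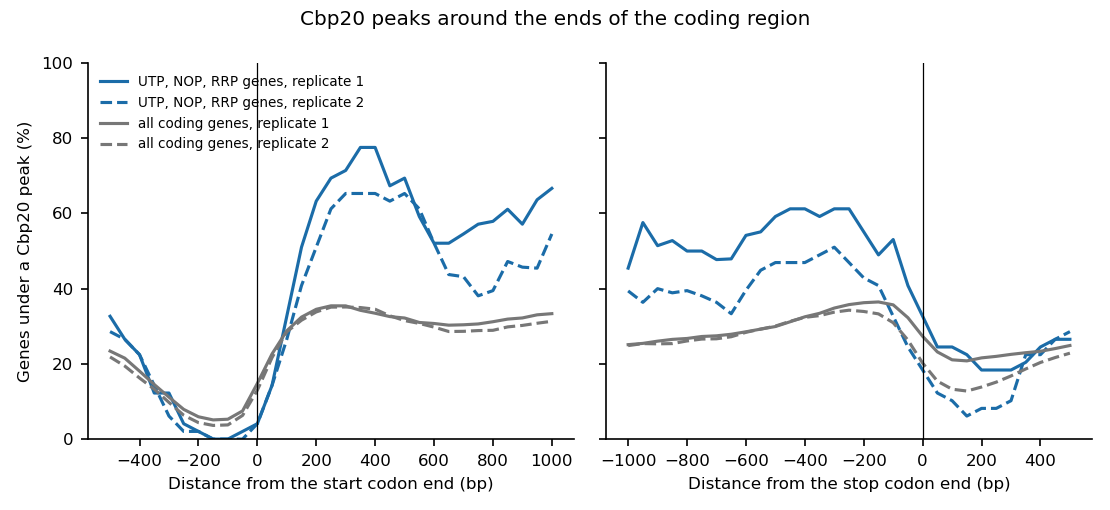
Percent of genes under a Cbp20 peak (y axis) by distance in bp from the start codon end (left) and the stop codon end (right), with negative distances upstream in the direction of transcription. Blue lines are the 49 genes and grey lines all 6002 protein-coding genes, solid for replicate 1 and dashed for replicate 2. The blue lines are at 0% at 100 bp before the start codon and reach 77.6% and 65.3% at 400 bp after it, where the grey lines stand at 33.5% and 34.5%.

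Over the 41 genes with Cbp20 in both replicates, the first covered base lay a median of 132 bp (replicate 1) and 160 bp (replicate 2) after the start codon end, and over all 2692 such genes 55 and 57 bp. This distance varied with the share of the gene that was covered. In the 15 genes of the group with a mean coverage over 50% and up to 75%, it was 170 and 201 bp, against 109 and 112 bp in all 508 genes of that class. In the 12 genes over 75%, it was 65.5 and 78 bp, against 1 and 6 bp in all 1316 genes of that class. In the 1178 of these outside the cytoplasmic ribosomal protein genes, it was 11 and 16 bp. In the 10 genes over 25% and up to 50%, it was 181 and 241 bp, against 236.5 and 230.5 bp, so in that class the group did not begin later in replicate 1. In the class up to 25%, with 4 such genes, it was 590.5 and 637.5 bp, against 828.5 and 752.5 bp, so there the group began earlier in both replicates. Coverage was not equal in the class over 75%, with medians of 90.7% and 86.3% in the 12 genes and 97.2% and 94.9% in the 1178.

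The mean position of the covered bases, as a percent of the gene from the start codon (0) to the stop codon (100), had a median of 50.3 in replicate 1 and 50.1 in replicate 2, and 50.3 and 50 over all genes with Cbp20 in both. Long genes differed from this. In the 14 covered genes of 2000 bp or more, the medians were 44.3 and 32.2, against 46.2 and 43.8 in all 557 such genes. When each of these long genes was cut into 10 equal parts, the mean share of bases under Cbp20 peaks was 36.5% and 36.0% in the first part, 78.1% and 72.6% in the second, and 28.3% and 9.79% in the last. All long genes with Cbp20 in both lists went from 54.9% and 53.8% in the first part to 36.9% and 30.4% in the last. In both replicates the long genes of the group therefore had less coverage in the first and the last part, and more in the second, than all long genes, where the second part held 58.7% and 56.9%.

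Single long genes varied in layout. UTP10, a UTPA gene of 5310 bp on the minus strand of chromosome X, carried 4 separate Cbp20 peaks in each list. The first began 307 and 276 bp after the start codon, and the last ended 2626 and 2702 bp before the stop codon. RRP5, whose product is needed for both subunits, spans 5190 bp on chromosome XIII and was covered from 28 and 36 bp after the start codon, with 31.4% of its bases in replicate 1 and 16.4% in replicate 2. Its last covered base lay 2910 and 4305 bp before the stop codon. In both of these genes the 3ʹ part of the coding region was free of peaks, but RRP5, unlike UTP10, was covered from near its start. RRP6, the gene of an exonuclease of the nuclear exosome, was chosen after its values were seen. There the mean position of Cbp20 was 70.3 and 58.4. Its first covered base lay 1272 and 521 bp after the start codon, and its last 377 and 338 bp before the stop codon. NOP8, a large-subunit gene also chosen afterwards, was covered only at its 3ʹend, at positions 89.6 and 91.5, by peaks that also touched RIB4.

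**Figure D3:**
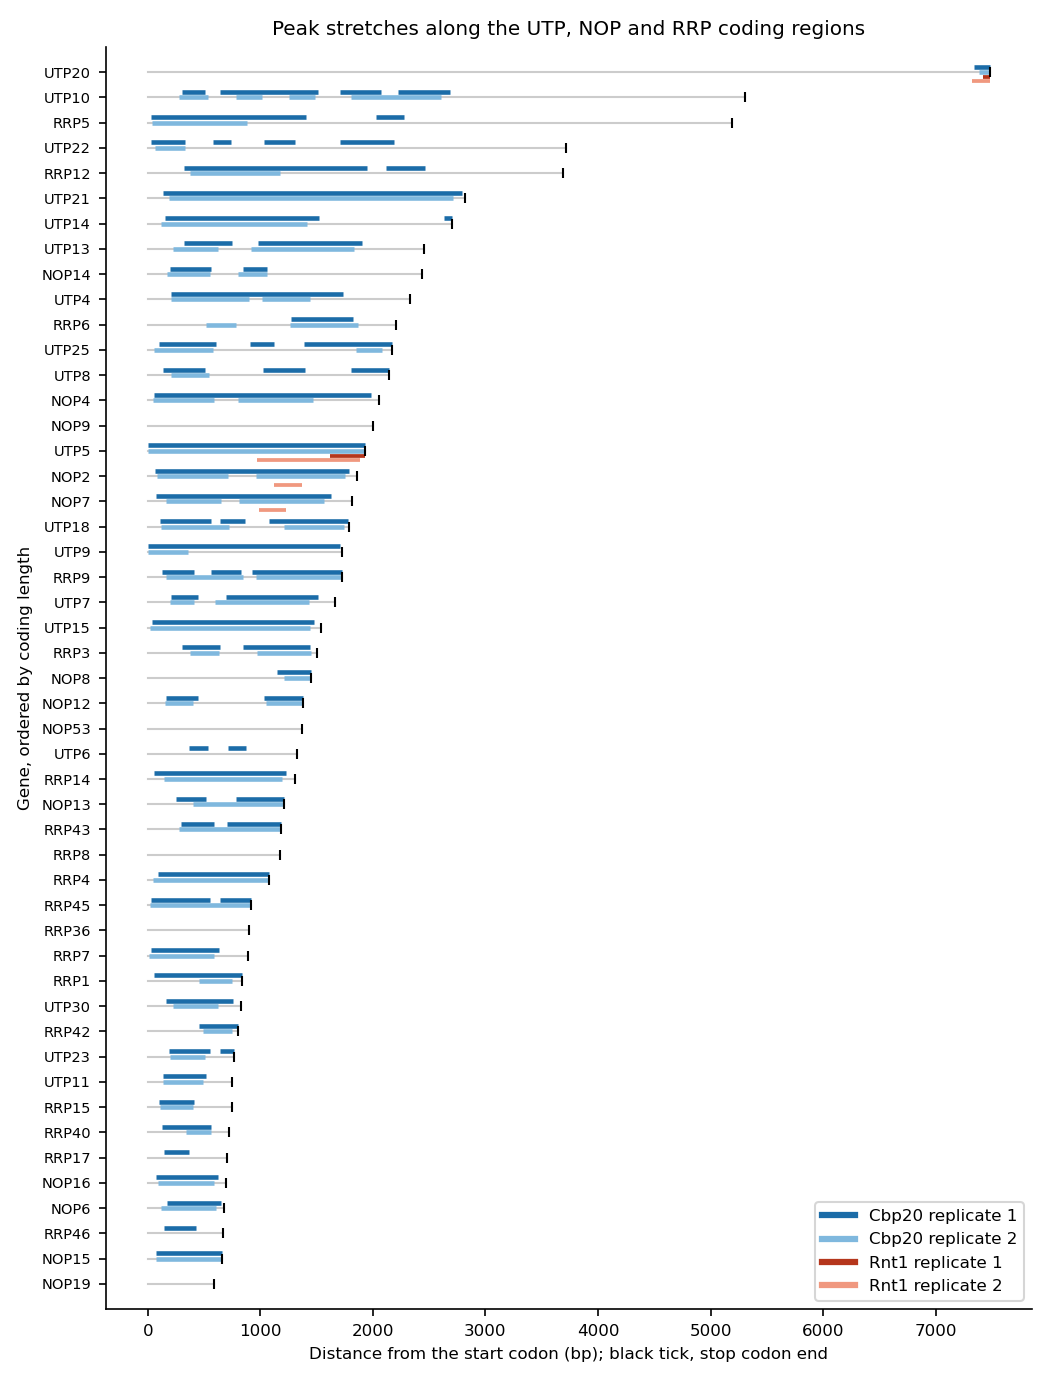
Peak stretches along each of the 49 coding regions, from the start codon (0) in bp along the x axis to the stop codon end (black tick), with genes on the y axis ordered by length. Dark and light blue bars are Cbp20 replicates 1 and 2, and dark and light red bars Rnt1 replicates 1 and 2, clipped to the gene. The Cbp20 bars of UTP10, RRP5, UTP22 and RRP12 lie towards the start, those of UTP20 lie at its very end, and red bars are seen in UTP5, UTP20, NOP2 and NOP7 only.

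Rnt1 peaks inside a gene body, in both replicates, were seen in UTP5 alone. On chromosome IV these spanned 1269091 to 1269401 (replicate 1) and 1268445 to 1269354 (replicate 2). They covered 16.1% and 47.1% of UTP5, ended 1 and 48 bp before the stop codon end, and touched no other gene. Both lay in the 3ʹ part of a gene that Cbp20 peaks covered from end to end. The mean position of the Rnt1-covered bases minus that of Cbp20 was 41.9 points of gene length in replicate 1 and 24.0 in replicate 2, a mean of 32.9. Because Cbp20 covered the whole gene, its position was 50 in both lists, so the difference in UTP5 only restates where Rnt1 lay. Over the 749 protein-coding genes with both proteins in both replicates the median of this difference was 4.88 points, and it was above 0 in 566.

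The 264 bases of UTP5 that lay under a Rnt1 peak in both lists are shown because they are the only such stretch inside a gene of the group. Capitals mark the AGNN loop with the most base pairs directly beside it in this stretch, which has only 2.
UTP5 (chrIV:1269091-1269354, plus strand): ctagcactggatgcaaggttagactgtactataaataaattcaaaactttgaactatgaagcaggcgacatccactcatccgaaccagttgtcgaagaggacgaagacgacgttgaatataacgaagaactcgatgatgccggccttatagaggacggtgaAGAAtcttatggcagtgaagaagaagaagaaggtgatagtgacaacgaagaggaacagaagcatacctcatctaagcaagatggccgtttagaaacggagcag
The stretch has a GC content of 43.9%, and the whole gene 41.8%.

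In UTP20 the Rnt1 peaks covered the last 65 bases in replicate 1 and the last 158 in replicate 2, 0.87% and 2.11% of the gene, and ran on over HTA2 as the Cbp20 peaks did. The difference in position was 0.49 and −0.41 points, so the 2 proteins overlapped at the gene's end. NOP2 and NOP7 had a Rnt1 peak in replicate 2 only. The peak in NOP2 was 254 bp wide, covered 13.7% of the gene and had its centre at position 67.0. That in NOP7, whose product acts in large-subunit assembly, was 238 bp wide, covered 13.1% and had its centre at 61.1. Both lay inside a Cbp20 peak of both replicates, and NOP2, NOP7 and UTP5 are among the 12 genes of the group with a mean Cbp20 coverage over 75%. The other 45 genes had no Rnt1 peak in either list.

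Few of these genes carried both proteins. Of the 41 genes with a Cbp20 peak in both replicates, 2 also had a Rnt1 peak in both (4.88%), whereas of all 2692 such genes 749 did (27.8%). Over 75% mean coverage, 1 of 12 genes of the group and 605 of all 1316 genes (46.0%) had Rnt1 in both replicates. Leaving out the cytoplasmic ribosomal protein genes, 468 of 1178 (39.7%) did. Coverage was not equal within this class. Its median was 90.7% and 86.3% in the 12 genes, 98.4% and 96.3% in the 1316, and 97.2% and 94.9% in the 1178. Over 50% and up to 75%, the counts were 0 of 15 and 53 of 508 (10.4%), and over 25% and up to 50%, 0 of 10 and 52 of 502 (10.4%). In the lowest class, up to 25%, they were 1 of 4, which is UTP20, and 39 of 366 (10.7%). These shares are counts over genes, and no test was made of them.

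**Figure D4:**
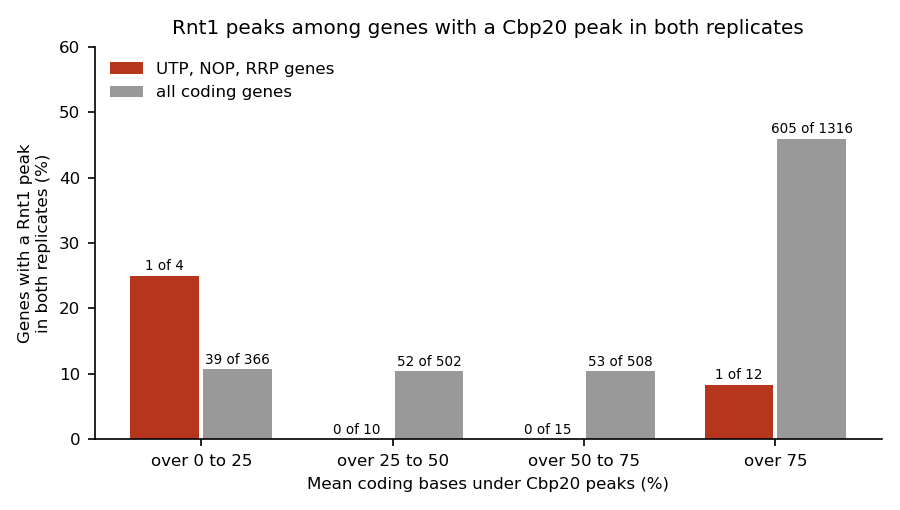
Percent of genes with a Rnt1 peak in both replicates (y axis) among genes with a Cbp20 peak in both, by the mean percent of coding bases under Cbp20 peaks (x axis). Red bars are the UTP, NOP and RRP genes and grey bars all protein-coding genes, these included, with the counts above each bar. The grey bar rises to 46.0% in the highest class, where 1 of 12 genes of the group has a Rnt1 peak.

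At the ends of the coding region, no gene of the 49 had its start codon end under Rnt1 peaks in both replicates, beside 2.47% of all genes, and UTP20 alone had its stop codon end there, beside 7.21%. Next to the genes the picture was nearer to that of all genes. Within 500 bp upstream of the start codon, 5 of the 49 had a Rnt1 peak in both lists (10.2%, all genes 9.45%), and within 500 bp downstream of the stop codon 4 had 1 (8.16%, all genes 12.9%). These peaks lay over other genes in all 9 cases. Upstream they covered RPS15 beside NOP12, HIS4 beside RRP7, TIF1 beside UTP30, a serine tRNA gene beside UTP20 and a threonine tRNA gene beside UTP22. Downstream they covered ELO2 beside RRP43, VAS1 beside RRP46, HTA2 beside UTP20, and NOC4 with an isoleucine tRNA gene beside RRP15.

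Other genes of the same pathway were set beside all genes, of which 44.9% had Cbp20 and 12.9% had Rnt1 in both replicates. In a list of 112 other ribosome biogenesis genes, 83 had a Cbp20 peak in both replicates (74.1%) and 10 a Rnt1 peak in both (8.93%), 9 of them with Cbp20. Median Cbp20 coverage in that list was 71.4% in replicate 1 and 47.8% in replicate 2. Among 11 genes of the exosome and its nuclear helpers outside the group, 7 had Cbp20 and none had Rnt1 in both replicates. The genes of the snoRNP core proteins, 8 in number, were covered by Cbp20 at medians of 98.4% and 96.8%, all 8 in both replicates, and 4 had Rnt1. The 138 cytoplasmic ribosomal protein genes all had Cbp20, and 137 had Rnt1. Of 67 mitochondrial ribosomal protein genes, 32 had Cbp20 and none had Rnt1 in both. The group thus lay between the cytoplasmic and the mitochondrial ribosomal protein genes in its share of genes with Cbp20, and near the latter in its share with Rnt1. How strongly each gene is transcribed is not given by the peak lists.

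Many genes of ribosome synthesis share a pair of short promoter elements, PAC and RRPE, through which repressors such as Dot6 and Tod6 (PAC) and Stb3 (RRPE) act in yeast. In the 250 bases before the start codon, the PAC core GATGAG, on either strand, was found in 39 of the 49 genes (79.6%) and in 17.0% of all genes. The RRPE core AAAATTTT, which reads the same on both strands, was found in 28 (57.1%) and in 8.65% of all genes. Both cores stood before 23 of the 49 genes (46.9%) and 4.08% of all genes, and 44 (89.8%) and 21.6% had at least 1 of them. The 2 motifs were searched apart, and copies of GATGAG that overlap each other were each counted. The copy nearest to the gene ended a median of 104 bp before the start codon for PAC and 121 bp for RRPE. None of the 58 GATGAG and 34 AAAATTTT copies before the 49 genes lay under Cbp20 peaks in both replicates, while 3.58% of 1201 and 1.97% of 559 such copies before all genes did. A match of letters is a description of the window and does not show that a factor binds there.

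The stretch that holds both cores is shown for the 6 genes with both that had the highest Cbp20 coverage, 5ʹ to 3ʹ on the strand of the gene, from the R64 reference of RefSeq. Capitals mark the cores, and CTCATC is GATGAG read on the other strand.
UTP5 (chrIV:1267260-1267301, plus strand): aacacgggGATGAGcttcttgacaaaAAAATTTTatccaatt
UTP21 (chrXII:937331-937374, minus strand): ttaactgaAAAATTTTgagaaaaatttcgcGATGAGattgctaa
NOP15 (chrXIV:418585-418648, minus strand): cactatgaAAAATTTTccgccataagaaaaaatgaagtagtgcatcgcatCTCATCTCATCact
RRP14 (chrXI:282451-282501, minus strand): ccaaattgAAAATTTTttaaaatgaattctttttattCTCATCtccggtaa
NOP2 (chrXIV:510390-510422, plus strand): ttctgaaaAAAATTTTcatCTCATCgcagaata
NOP7 (chrVII:695268-695304, plus strand): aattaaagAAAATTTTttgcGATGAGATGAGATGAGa
Within the shown stretches, PAC comes before RRPE in UTP5 and after it in the other 5. Other copies lie outside them, so this is not the order over the whole window. The copy nearest to the gene is of GATGAG in UTP5, at 126 bp, and of AAAATTTT in NOP7, at 97 bp. NOP7 holds 3 overlapping copies of GATGAG in a row and NOP15 holds 2 of CTCATC. The shown stretches end between 97 and 170 bp before the start codon. Of the 23 genes with both cores, 20 had Cbp20 in both replicates, and of the 5 with neither, 4 had. Over all genes, 180 of 245 with both cores (73.5%) and 2001 of 4706 with neither (42.5%) had.

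Hairpins of the kind Rnt1 cuts were searched in the coding strand, as an AGNN loop with at least 8 base pairs (G–T pairs allowed) directly beside it. Such a hairpin was found in 2 of the 49 genes (4.08%) and in 4.08% of all genes, so its share was the same. The 2 are shown with the AGNN loop in capitals.
RRP5 (chrXIII:730251-730274, minus strand): attgctaagaAGGAttttggcaat
RRP46 (chrVII:675792-675811, minus strand): ttattgttAGACagcaatgg
The RRP5 hairpin has 10 base pairs, the most in the group, and lies at bases 850 to 873 of the gene, under a Cbp20 peak in both replicates. The RRP46 hairpin has 8 and lies at bases 532 to 551. Neither lay under a Rnt1 peak in either list, and of the 4 genes with a Rnt1 peak in any list, UTP20 had a hairpin with 7 pairs as its longest, while UTP5, NOP2 and NOP7 had none with 7 or more.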

How the data were processed

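Per the labels and the methods of the study, the authors aligned ChIP-seq reads to sacCer3 with Bowtie2, kept uniquely mapped reads with a mapping quality of at least 30, called peaks with MACS2 at default settings and kept those with a q-value under 0.05. Versions, the use of input DNA as background and any separate treatment of replicates are not given in the sources used here. The deposited lists hold 3 columns, chromosome, start and end, without a score or count, so depth is unknown and precision rests on 2 libraries per protein. Only the second replicate of each strain is numbered, so the other was called replicate 1.

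From these lists, Python 3.11.15 with numpy 2.4.6 computed the share of coding bases under peaks, their position along the gene and motif matches. Genes came from the R64 annotation of RefSeq, whose gene features hold no UTRs, and coordinates count from 1. A gene carried a peak when at least 1 bp overlapped. Code was tested on simulated peaks and sequences. The exact permutation test used scipy 1.17.1. The genes and the lists were chosen with earlier results of these data known. Named genes were those with Rnt1 in any list, without Cbp20 in a list, with the 8 highest and 5 lowest Cbp20 shares, the 5 largest replicate differences, the 3 longest and 3 shortest, and those whose sequences are shown. Other settings tried are in the closing section. The 7 RNA-seq samples were left out.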

Additional observations from a re-analysis of the deposited data

How the results depend on the processing

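No sequencing depth, peak height or untagged library was at hand, and each protein had 2 lists, so a gene without a peak cannot be told from a gene below the caller's threshold. No paired analysis was possible because the counts and medians come from no test that could take a block, although the 2 lists of each number share their narrowest peak width (146 and 199 bp). Of 81 values under other settings, 51 were scored as unchanged and 30 as moved. Unchanged meant within the spread between replicates or, for counts, within 1.5 times. The Cbp20 minus Rnt1 median coverage was instead scored as unchanged while it stayed above 0. It was 50.7 points, and 27.8 with only the wider 50% of peaks. The Rnt1 minus Cbp20 position did not change sign, and counts, shares and positions cannot. The cause of the moves was not tested unless a setting itself counts fewer genes, bases or peaks.

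With at least 50% of the coding bases required, 19 genes had Cbp20 and 0 had Rnt1 in both replicates, not 41 and 2, beside 27.4% and 6.60% of all genes. With only the wider 50% of each library's peaks, 26 had Cbp20 (29.1% of all genes did) and 1 had Rnt1 (UTP20, beside 8.90% of all genes). The median Cbp20 coverage was then 27.8%, the Rnt1 position 99.3, the Rnt1 minus Cbp20 position 0.037 and the Cbp20 position 50.6. Under that setting 1 gene had its start codon end under Cbp20, beside 9.50% of all genes. With only peaks that overlap no other gene, Rnt1 was left on 1 gene (UTP5; 7.93% of all genes) in both replicates, at position 82.9 and 32.9 points from Cbp20, and the Cbp20 position was 49.1. Among the 14 genes with no other gene within 300 bp, 12 had Cbp20 and 1 had Rnt1 in both replicates, where 50.4% and 16.1% of all such genes did. Of the 14, 1 had the start and 5 the stop codon end under Cbp20 (15.3% and 22% of all such genes), and 0 the stop codon end under Rnt1 (8.24%). At 100 bp outside the gene, 0 genes were covered by Cbp20 before the start codon and 5 after the stop codon, beside 3.37% and 12.5% of all genes. The Cbp20 position, 50.2 as the mean of both lists, was 51.4 with 100 bp added on both sides, 51.6 by the midpoint of the largest peak and 46.9 in genes of at least 1500 bp.

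Leaving out 1 library at a time, the Cbp20 position was 50.1 in either list. The stop codon end was under Cbp20 in 9 to 16 genes, 16 being the count without Cbp20 replicate 2 (27.3% of all genes). Rnt1 was on 2 to 4 genes, 4 being the count without Rnt1 replicate 1 (20.6% of all genes), and its median position was 70.5 to 95.7. The longer PAC core GCGATGAG was found before 23 genes, not 39, and before 3.83% of all genes. AGNN hairpins with at least 7 pairs were found in 6 genes and with at least 10 in 1, beside 9.51% and 0.58% of all genes.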
